A study of Danio rerio with 32 samples.

Results

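The genes described here encode nuclear subunits of 3 enzymes of the inner mitochondrial membrane: respiratory complex III, respiratory complex IV and ATP synthase. They were chosen by name alone, as the probe sets with a single gene symbol that starts with uqcr, cox4, cox5, cox6, cox7, cox8 or atp5, or that is cyc1. The rule gave 42 of the 15502 probe sets analysed, for 40 of 8793 genes with a symbol. Complex III had 9 probe sets for 8 genes, complex IV 14 for 14 genes and ATP synthase 19 for 18 genes. Both uqcrc2a and atp5l had 2 probe sets, and 1 probe set shared by an ATP synthase gene and another gene was left out.

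Mononuclear myogenic cells were isolated from the dorsal muscle of adult zebrafish, expanded in a growth medium with FBS and rhFGF, and changed to a differentiation medium with horse serum. The fish were of the α-actin–RFP line, in which a muscle actin promoter drives a red fluorescent protein. Fish were pooled for each preparation, and their age is given only as adult. RNA from 6 days of culture (0, 1, 4 and 7, then 10 and 14) was measured on Affymetrix Zebrafish Genome Arrays, of which 31 were used. Batch 1 gave 3 arrays of days 0–1, 2 of day 4, 2 of day 7 and 4 of days 10–14, all hybridized in 1 run, and batch 2 gave 6, 4, 5 and 5 arrays in 4 runs. All groups share the media and the tissue, the number of plated cells is labelled for batch 1 only, and arrays are named below by day and replicate letter, such as 10A.

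Complex III takes electrons from ubiquinol and hands them to cytochrome c, complex IV (cytochrome c oxidase) passes them on to oxygen, and both build the proton gradient that drives ATP synthase. The catalytic core of complex IV is encoded in mitochondrial DNA, while the subunits described here are encoded in the nucleus and imported. Muscle fibers are rich in these enzymes, and some subunits exist in copies, or isoforms, whose use differs between tissues.

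Signals were linear intensities, quantile normalized between arrays, and changes are differences of log2(signal + 32), so that a change of 1 is a doubling for a bright probe set. A probe set was called higher or lower at an adjusted p under 0.05 in limma, adjusted over all 15502 probe sets. Most subunit genes were among the brightest of the array. The mean signal of 38 probe sets lay between 1120 and 14320, cox4i1l and cox4i2 had 827.5 and 977, and the second probe sets of uqcrc2a and atp5l were dim, at 67.9 and 22.8.

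The day means of the median level of the subunit genes of each of the 3 enzymes were lowest on days 0 and 1 and highest at day 7 in both batches. Days 4, 10 and 14 lay in between. As a median over the genes of a complex, the level of each array was taken relative to the mean of days 0–1 of its batch. In batch 1 the means of complex III over the arrays of days 4, 7, 10 and 14 were 0.61, 1.17, 0.61 and 0.44. Those of complex IV were 0.59, 0.74, 0.65 and 0.65, and those of ATP synthase 0.54, 0.63, 0.33 and 0.36. In batch 2 the day means were 0.60, 0.67, 0.54 and 0.29 for complex III, 0.63, 0.77, 0.57 and 0.34 for complex IV, and 0.68, 0.74, 0.34 and 0.39 for ATP synthase. Over all subunit genes the arrays of days 0–1 lay between -0.125 and 0.10 in batch 1, and all its later arrays at 0.35 or above. In batch 2 the arrays of days 0–1 lay between -0.159 and 0.21, the later ones at 0.20 or above, and the 2 ranges overlapped by a single array of day 14. There 7C, 7D and 7E had 0.80, 0.89 and 0.91 and were hybridized in run 5, whose only other array was 14B (0.54). In run 4, 7A and 7B had 0.64 and 0.52, below 4D (0.79), while 10B, 10C and 14A had 0.275, 0.63 and 0.20. These levels were not adjusted for run, and the part of run in the day 7 means was not tested. RNA was taken from whole cultures, so fewer cells of a type and less RNA per cell cannot be told apart.

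**Figure D1:**
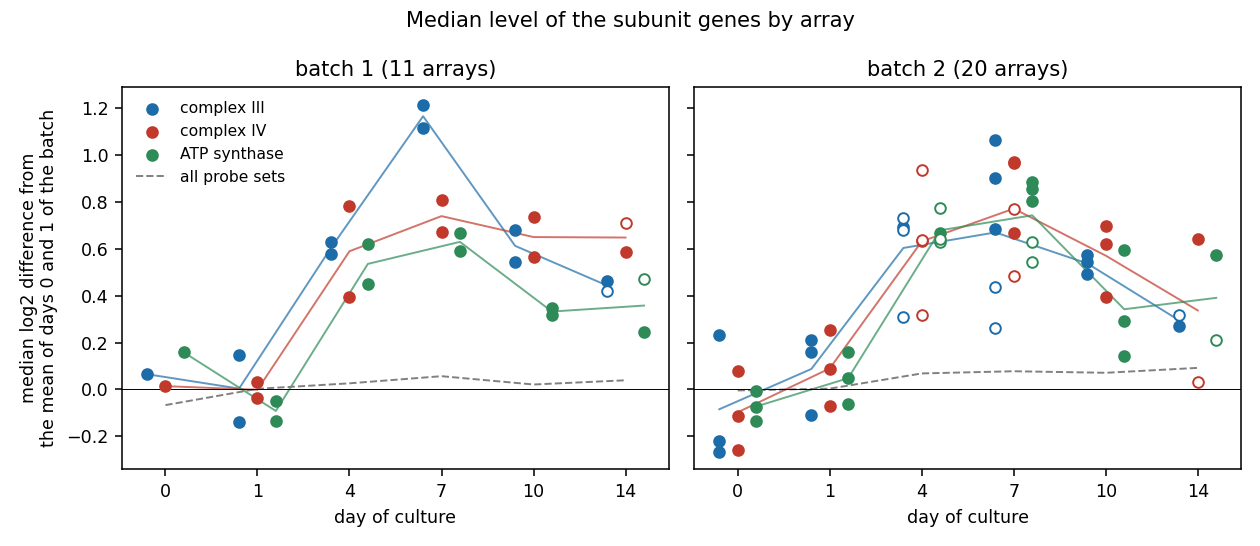
Median over the subunit genes of each complex of the log2 difference from the mean of days 0–1 of the same batch (vertical axis), by day of culture (horizontal axis, days as categories) for 11 arrays of batch 1 and 20 of batch 2. Each point is 1 array, open points are arrays labelled poor, solid lines join day means and the dashed line is the median over all probe sets. Day means of day 4 lie between 0.54 and 0.68 in both batches.

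The step from day 1 to day 4 carried most of the difference. In a fit of all 6 days over both batches, 25 of the 42 probe sets were higher at day 4 than at day 1 and 0 were lower, where 8.66% of all probe sets were higher and 7.92% lower. Higher were 5 of 9 in complex III, 8 of 14 in complex IV and 12 of 19 in ATP synthase, and the median changes were 0.60, 0.60 and 0.65, against 0.06 over all probe sets. The change was 1.06 for uqcrc1, 1.03 for cox6b2 and 1.03 for atp5mc3a (adjusted p = 0.0022, 0.00045 and 0.0079). Counted in either direction, where 16.6% of all probe sets were called, the 25 became 14 without day 4D of batch 2 (10.3% of all), 8 with the authors' scaling alone (13.2%) and 8 with good arrays alone (8.44%), which leaves 1 array of day 4 in batch 2.

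Between the other neighbouring days few subunit genes passed the test. Between day 0 and day 1 no subunit gene was called in limma, 0 had an unadjusted p under 0.05, and 0% of all probe sets were called. Between day 4 and day 7 only cox4i2 was called, where 1.88% of all probe sets were called in either direction. From day 7 to day 10, 0 were called, where 0.00645% of all probe sets were called. At an unadjusted p under 0.05, 1 was higher and 8 were lower. From day 10 to day 14, 0 were called, where 0% of all probe sets were called. At an unadjusted p under 0.05, 0 were higher and 1 was lower. The shares of all probe sets at an unadjusted p under 0.05 are not given, so these unadjusted counts alone show no excess.

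Against days 0–1, 29 of 42 probe sets were higher at day 4 and 1 was lower in both batches together, where 13.7% of all probe sets were higher and 11.8% lower. At day 7, 28 were higher and 0 lower, where 19.4% were higher and 14.9% lower. These comparisons and that of days 10–14 with day 7 were chosen after the course by day had been seen, and those against days 0–1 share these arrays. The count at day 4 was 16 with the authors' scaling alone (14.9% of all probe sets higher) and 18 with good arrays alone (8.06%). In batch 1 alone the counts were 2 at day 4 (3.39% of all probe sets higher) and 17 at day 7 (13.3%), and in batch 2 they were 22 (9.82%) and 17 (14.5%). With the authors' scaling alone batch 2 gave 8 at day 4 and 4 at day 7, where 18.2% and 22.3% of all probe sets were higher, so that the share of subunit genes was then close to that of all probe sets at day 4 (19% of 42) and below it at day 7 (9.52%). With good arrays alone batch 2 gave 0 and 1 (0% and 1.21% of all). Single arrays moved these batch counts too, and the shares of all probe sets with them. Without 4D, batch 2 gave 5 at day 4 (2.33% of all), and without 0C or 7A it gave 11 at day 7 (8.62% and 7.79%). Batch 1 had 2 arrays of day 4 and 2 of day 7, so that leaving out any of these leaves 1, and those counts are not given. Its counts at days 4 and 7 thus rest on 2 arrays of each day. With these arrays kept, batch 1 gave 0 at day 4 without 1A, 10A, 10B or 14A (1.56% to 1.97% of all). It gave 2 without 1B or 14B (3.55% and 3.28%) and 7 without 0A (8.48%). Days 10–14 were below day 7 in 39 of 42 probe sets, with a median of -0.284. In limma 0 were called, where 0.0258% of all probe sets were called in either direction. At an unadjusted p under 0.05 there were 12. The shares of all probe sets that match the 39 and the 12 are not given, so these counts alone show no excess.

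**Figure D2:**
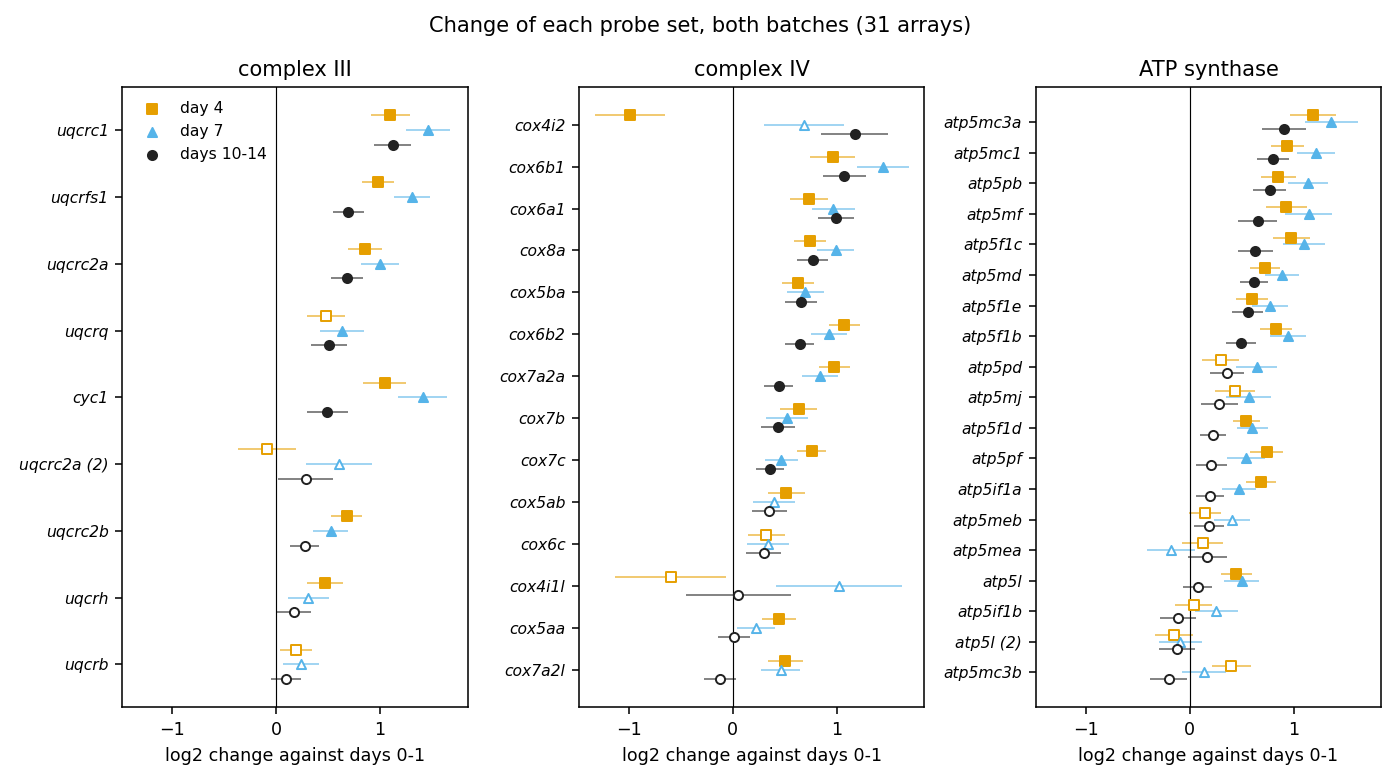
Log2 change (horizontal axis) of each of the 42 probe sets (vertical axis, by gene, ordered within each complex by the change at days 10–14) at day 4 (squares), day 7 (triangles) and days 10–14 (circles) against days 0–1, fitted over both batches. Bars are standard errors, filled symbols passed an adjusted p of 0.05, and (2) marks the second, dim probe set of a gene. At day 4, 29 probe sets are higher and 1, cox4i2, is lower.

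Days 10–14 were compared with days 0–1 in each batch and in both together. In both batches together 22 of 42 probe sets, each for another gene, were higher and 0 lower, where 22.2% of all probe sets were higher and 17% lower. Higher were 5 of 9 in complex III, 9 of 14 in complex IV and 8 of 19 in ATP synthase, with median changes of 0.49, 0.44 and 0.29, against 0.07 over all probe sets. In batch 1 alone 14 were higher and 0 lower, where 16% of all were higher, and in batch 2 alone 11 were higher and 1 lower, where 12.9% were higher and 12.1% lower. The count of batch 1 was 5 without 10A, 6 without 14A, 7 without 10B and 9 without 1A, where 12%, 11.1%, 12.1% and 13.7% of all probe sets were higher. The count of batch 2 was 4 without 10A, 5 without 0C, 5 without 1C and 7 with the authors' scaling alone, where 7.61%, 9.62%, 9.56% and 13.5% were. Without 10A the share of subunit genes, 11.9% in batch 1 and 9.52% in batch 2, was thus close to that of all probe sets. It also came near that share without 14A in batch 1 (14.3%). In batch 2 it did so without 0C or 1C (11.9% each) and with the authors' scaling alone (16.7%).

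Of the 42 probe sets 5 were called higher in both batches, 9 in batch 1 only and 6 in batch 2 only. A positive change in both was found for 30. In ATP synthase 0 were called in both batches, 3 in batch 1 only and 4 in batch 2 only. The shares of all probe sets under these joint rules are not given, so these counts alone show no excess. The sizes of the changes of the 42 probe sets correlated little between the batches (r = 0.13). Within complexes III and IV and ATP synthase r was 0.71, -0.052 and 0.42. The median changes were positive in each batch. For complexes III and IV and ATP synthase they were 0.45, 0.66 and 0.34 in batch 1 (all probe sets 0.03) and 0.31, 0.48 and 0.38 in batch 2 (all probe sets 0.12). With the authors' scaling alone the median of all probe sets moved to -0.431 in batch 1 and to -0.154 over both batches, while the medians of the 3 complexes stayed positive, at 0.60, 0.75 and 0.39 in batch 1 and 0.51, 0.44 and 0.33 over both. In batch 2 they came nearer to the median of all probe sets, 0.12, at 0.25, 0.24 and 0.27. Within run 2 of batch 2, with 1 array of days 10–14 and 2 of days 0–1, the median over the 42 probe sets was 0.29 and 31 were positive. Within run 4, with 3 and 2 arrays, it was 0.52 and 36 were positive. The median of all probe sets was 0.10 in run 2 and 0.11 in run 4. The shares of all probe sets that were positive within these runs are not given. All arrays of days 10–14 were above all arrays of days 0–1 for 24 of 42 probe sets in batch 1, where this held for 20.5% of all probe sets, and for 7 in batch 2, where it held for 10.5%. Those 7 were uqcrc1, cox5ba, cox6a1, cox6b1, cox8a, atp5mc1 and atp5pb.

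In complex III the largest change was that of uqcrc1, which encodes core protein 1 on the matrix side of the complex. In batch 1 its signals were 2205, 1191 and 1976 on days 0–1, 3377 and 4343 at day 4, 5909 and 5660 at day 7, and 4636, 4428, 4539 and 4945 at days 10–14. In batch 2 days 0–1 ran from 1061 over a median of 1656 to 2569, day 4 gave 2473, 3067, 3281 and 5444, day 7 gave 3852, 3981, 3923, 4506 and 4043, and days 10–14 gave 4474, 2943, 2678, 3112 and 3198. All late arrays were above all early ones in both batches, by the least margin in batch 2, where 10C had 2678 and 1A had 2569. The change at days 10–14 was 1.40 in batch 1 (SE 0.25), 0.85 in batch 2 (SE 0.25) and 1.12 in both (SE 0.18, adjusted p = 1.1e-05).

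The Rieske iron-sulfur protein, which takes electrons from ubiquinol, is encoded by uqcrfs1. In batch 1 its signals were 3801, 3138 and 4020 on days 0–1 and 7505, 5998, 6219 and 6708 on days 10–14, and day 7 was highest, with 9636 and 9823. In batch 2 days 0–1 ran from 3706 over 4571 to 5237, day 7 gave 7417, 11220, 8502, 11730 and 11570, and days 10–14 gave 8476, 6991, 7263, 5636 and 5026. The last of these, 14B, lay within the early range. The change was 0.85 in batch 1 (SE 0.21), 0.57 in batch 2 (SE 0.23) and 0.69 in both (SE 0.15, adjusted p = 3.9e-04). In batch 2 alone it did not pass.

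Of the other complex III genes, uqcrc2a, for core protein 2, and uqcrq, an accessory subunit, were higher over both batches by 0.68 (SE 0.15, adjusted p = 7.2e-04) and 0.51 (SE 0.17, adjusted p = 0.019). The call of uqcrq was lost without 0C of batch 2 (adjusted p = 0.052). The fifth was cyc1, for cytochrome c1, with 0.49 (SE 0.20, adjusted p = 0.048). In batch 1 its late signals, 3487 to 4216, were above the early ones, 2032 to 2678, and below those of day 7, 5636 and 5885. In batch 2 the early and late signals of cyc1 overlapped. Early arrays there spanned 2079 to 3794, and the late ones gave 4356, 2203, 1919, 3565 and 3685. The signal of 10C, 1919, was below every early array of that batch. The smallest changes over both batches were those of uqcrb, an accessory subunit, and uqcrh, the hinge protein, with 0.10 (SE 0.14) and 0.17 (SE 0.16). Neither passed the test. By batch uqcrb had 0.300 in batch 1 and -0.083 in batch 2, and uqcrh had 0.373 and -0.041. The dim second probe set of uqcrc2a changed by 0.28 (SE 0.26) and did not pass.

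In complex IV cox6b1, for subunit 6B, an accessory subunit on the outer face, was called at day 4 and later. Its signals in batch 1 were 1884, 3104 and 2781 on days 0–1, 2900 and 6708 at day 4, 7176 and 8410 at day 7, and 6542, 6139, 6419 and 4052 on days 10–14. In batch 2 they ran from 671.4 over 889.2 to 1064 on days 0–1, gave 1121, 2158, 1543 and 3104 at day 4 and 2806, 1884, 2422, 1408 and 2044 at day 7, and were 1803, 1668, 2308, 1673 and 1454 on days 10–14. In each batch all arrays of days 10–14 were above all of days 0–1. The change was 1.16 in batch 1 (SE 0.33), 0.94 in batch 2 (SE 0.27) and 1.07 in both (SE 0.20, adjusted p = 1.3e-04).

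The gene of subunit 6A, cox6a1, was also called at day 4 and later. In batch 1 it had 8571, 4611 and 6358 on days 0–1 and 11220, 12570, 11570 and 14570 on days 10–14. In batch 2 it ran from 1913 over 2498 to 3338 on days 0–1 and gave 5787, 5396, 7621, 3930 and 4931 on days 10–14. The groups did not overlap in either batch, and the change was 0.97 (SE 0.26), 1.05 (SE 0.25) and, in both, 0.99 (SE 0.17, adjusted p = 4.2e-05). From day 7 to days 10–14 it changed by 0.02. The small subunit gene cox8a changed by 0.80 in batch 1, 0.69 in batch 2 and 0.77 in both (SE 0.15, adjusted p = 1.5e-04).

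Subunit 4 stood apart from the other subunits of the complex. It is the largest nuclear subunit of complex IV, and in mammals its isoform 2 is known from the lung, while isoform 1 is widely expressed. In batch 1 cox4i2 had 285, 546.5 and 550.4 on days 0–1, 219.5 and 345.5 at day 4, 1044 and 882.1 at day 7, and 1907, 1692, 1460 and 1897 on days 10–14. In batch 2 it ran from 140.1 over 979.6 to 1384 on days 0–1, gave 291.4, 175.3, 265.1 and 455.8 at day 4 and 1851, 673.6, 1761, 556.4 and 809.9 at day 7, and was 1544, 1700, 2216, 756.5 and 1068 on days 10–14. Day 4 was the lowest stage in batch 1, and in batch 2 all 4 arrays of day 4 lay below 5 of the 6 arrays of days 0–1.

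Over both batches cox4i2 was lower at day 4 than on days 0–1 by 0.99 on the log2 scale (a change of -0.989, adjusted p = 0.031), higher at day 7 than at day 4 by 1.61 (adjusted p = 0.044) and higher on days 10–14 than on days 0–1 by 1.17 (SE 0.32, adjusted p = 0.0045). The last call held without each array in turn, with adjusted p of at most 0.015. The call at day 4 was lost with the authors' scaling alone (adjusted p = 0.06), with good arrays alone (0.09) and without each of 6 arrays: 4A of batch 1, and 0A, 0B, 0C, 4A and 4B of batch 2 (at most 0.12). The call of day 7 against day 4 was lost without each of 15 arrays, with adjusted p of at most 0.16. By batch the change at days 10–14 was 1.89 in batch 1 (SE 0.28) and 0.58 in batch 2 (SE 0.47), where it did not pass.

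The other subunit 4 gene, cox4i1l, moved in opposite directions in the 2 batches. In batch 1 it had 566.6, 1218 and 721.9 on days 0–1, 310.1 and 276.1 at day 4, 1004 and 3726 at day 7, and 1657, 4034, 3130 and 1617 on days 10–14. In batch 2 it ran from 110.6 over 465 to 749.9 on days 0–1, gave 127.6, 519, 192.4 and 889.8 at day 4, 830.7, 351.7, 410.4, 237.9 and 211.4 at day 7, and 213.5, 265.1, 191.7, 135.6 and 20.8 on days 10–14. The late arrays were all above the early ones in batch 1 and all but 1 of the early ones were above the late ones in batch 2. The change was 1.57 in batch 1 (SE 0.48, adjusted p = 0.034) and -1.435 in batch 2 (SE 0.48, adjusted p = 0.034). The difference of 3.00 (SE 0.73, adjusted p = 0.018) was the only one of the 42 that passed the test between batches, where 5.39% of all probe sets did, and with the replicate letter as a block it was 2.84 (adjusted p = 0.054). With that block neither batch's own call passed (adjusted p = 0.051 and 0.074), and that of batch 2 did not pass without the run covariate (0.053). The call of batch 1 was lost without 0A, 1B, 10B or 14A and that of batch 2 without 0A, 0C, 1A, 4D, 10C, 14A or 14B.

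**Figure D3:**
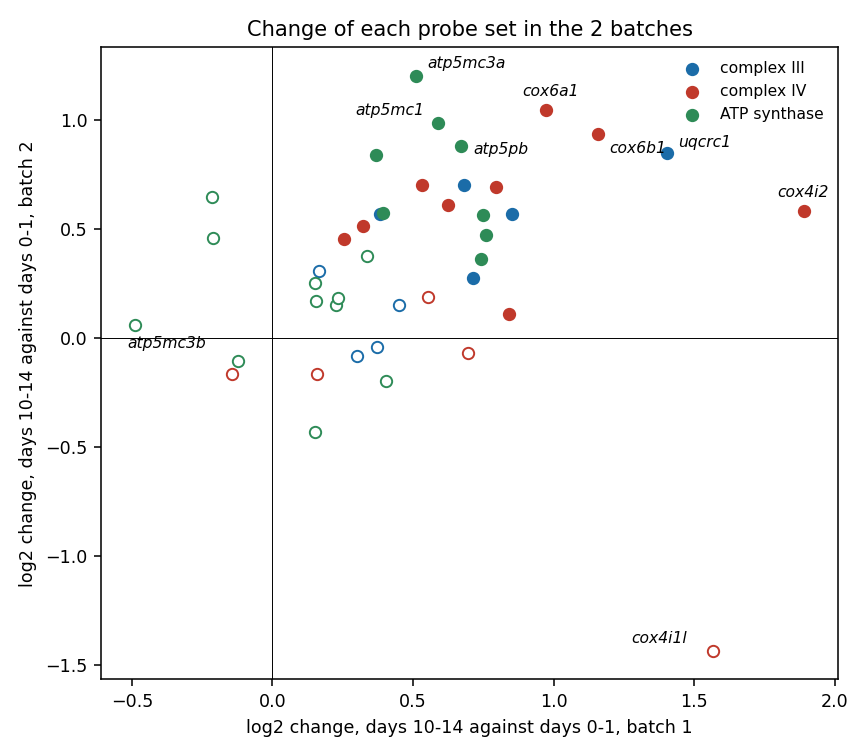
Log2 change of each of the 42 probe sets from days 0–1 to days 10–14 in batch 1 (horizontal axis) and batch 2 (vertical axis), by complex. Filled points passed an adjusted p of 0.05 over both batches; 30 of 42 probe sets are positive in both batches, and cox4i1l lies at 1.57 and -1.435.

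The other complex IV genes that were higher over both batches were cox5ba (0.66), cox6b2 (0.64), cox7a2a (0.44), cox7b (0.43) and cox7c (0.35), for subunits 5B, 6B, 7A, 7B and 7C (adjusted p between 6.2e-04 and 0.039). With the authors' scaling alone cox6b2 had 0.21 and did not pass (adjusted p = 0.29). The smallest changes over both batches were 0.01 for cox5aa, a copy of subunit 5A, and 0.05 for cox4i1l. Both join changes of opposite sign, 0.157 in batch 1 and -0.165 in batch 2 for cox5aa and 1.57 and -1.435 for cox4i1l. The gene of a supercomplex assembly factor related to subunit 7A, cox7a2l, was higher at day 4 by 0.51 (adjusted p = 0.023) and had -0.123 on days 10–14 (adjusted p = 0.56).

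In ATP synthase the largest changes were those of 2 genes for subunit c, which forms the rotating ring in the membrane. In batch 1 atp5mc3a had 3374, 2491 and 2832 on days 0–1 and 4495, 4304, 3498 and 4206 on days 10–14. In batch 2 it ran from 1616 over 1989 to 3915 on days 0–1, reached 15720 on 4B against 3810, 4854 and 4805 on the other arrays of day 4, and gave 3926, 4141, 3067, 5017 and 5213 on days 10–14. Only 10C was below the highest early array, 1B. The change was 0.51 in batch 1 (SE 0.21), 1.20 in batch 2 (SE 0.32) and 0.90 in both (SE 0.21, adjusted p = 0.0011). In batch 1 alone it did not pass.

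Its copy atp5mc1 had 5054, 4964 and 4559 on days 0–1 and 8190, 6496, 6622 and 8083 on days 10–14 of batch 1. In batch 2 it ran from 2349 over 2944 to 4120 on days 0–1 and gave 7596, 4435, 4918, 5606 and 6622 on days 10–14. The groups did not overlap in either batch. The change was 0.59 (SE 0.22), 0.99 (SE 0.23) and, in both, 0.80 (SE 0.15, adjusted p = 1.1e-04). In batch 1 alone it did not pass either.

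Subunit b, the main part of the stalk that holds the catalytic head in place, is encoded by atp5pb. It had 5581, 4463 and 5071 on days 0–1 and 7717, 8190, 6926 and 9423 on days 10–14 of batch 1, and in batch 2 ran from 2500 over 3751 to 5237 and then gave 9526, 6111, 8048, 5862 and 6195. Again all late arrays were above the early ones. The change over both batches was 0.77 (SE 0.16, adjusted p = 3.6e-04), and that of atp5mf, for membrane subunit f, was 0.66 (SE 0.19, adjusted p = 0.0062). In batch 1 alone the change of atp5pb was 0.67 and did not pass. In batch 2 alone that of atp5mf was 0.57 and did not pass.

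Also higher over both batches were the catalytic head and central stalk genes atp5f1c (subunit gamma, 0.63), atp5f1e (epsilon, 0.56) and atp5f1b (beta, 0.49) and atp5md, a small membrane subunit (0.62), with adjusted p between 4.7e-04 and 0.0079. The central stalk gene atp5f1d (delta) had 0.23 (adjusted p = 0.15). The inhibitor of ATP hydrolysis, IF1, has 2 genes: atp5if1a was higher at day 4 by 0.69 (adjusted p = 8.8e-04) and had 0.20 on days 10–14 (adjusted p = 0.27), and atp5if1b had 0.04 at day 4 and -0.109 on days 10–14 (adjusted p = 0.90 and 0.65). The smallest changes over both batches were those of atp5l, for membrane subunit g, with 0.08 (SE 0.14), and atp5if1b. By batch the signs were opposite, with 0.404 in batch 1 and -0.197 in batch 2 for atp5l and 0.153 and -0.431 for atp5if1b. Subunit e is encoded by atp5mea and atp5meb, which had 0.17 and 0.19 on days 10–14 and passed in none of the fits of days 10–14. By batch atp5mea had -0.210 in batch 1 and 0.461 in batch 2.

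Copies of one subunit did not all change alike. For the 9 pairs of genes with the same subunit, the difference of their log2 signals was compared between 9 late and 9 early arrays by an exact two-sided permutation test within batches, adjusted over the 9 pairs. Hybridization run did not enter this test. Of the batch 2 arrays tested, those of run 3 were early only (0B and 1B) and that of run 5 was late (14B). The part of run in these differences was not tested. Levels of different probe sets cannot be compared, so only the changes are. For subunit c, atp5mc3b had 15430, 10720 and 12750 on days 0–1 and 8338, 7742, 7765 and 13810 on days 10–14 of batch 1, and in batch 2 ran from 7950 over 8569 to 10360 and then gave 9823, 8637, 9051, 9904 and 7596. Its change was -0.490 in batch 1 and 0.06 in batch 2, and did not pass the test in either. With the authors' scaling alone atp5mc3b was called lower in batch 1 (-0.744, adjusted p = 0.034) and over both batches (-0.483, adjusted p = 0.0077). It moved by 0.97 less than atp5mc1 and by 0.96 less than atp5mc3a (exact adjusted p = 0.00111 and 0.00167), in the same direction in both batches, while atp5mc1 and atp5mc3a differed by 0.01 (exact adjusted p = 0.938).

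In complex IV, cox5ab moved by 0.51 more than cox5aa (difference -0.511, exact adjusted p = 0.0026). In batch 1 cox5ab had 1737, 1267 and 1569 early and 2324, 1952, 1912 and 2866 late, and cox5aa had 3823, 4549 and 4931 early and 4451, 4901, 4611 and 5835 late. In batch 1 the late range of cox5ab was clear of the early one, that of cox5aa was not. In batch 2 cox5ab ran from 481 to 1112 early and from 695.3 to 1220 late, so that these ranges overlapped. The difference of cox5aa and cox5ab was -0.396 in batch 1 (exact unadjusted p = 0.143) and -0.582 in batch 2 (exact unadjusted p = 0.00649). Over both batches cox5ab had a change of 0.35 (SE 0.17) that did not pass (adjusted p = 0.096), and it passed with the authors' scaling alone (0.54, adjusted p = 0.016), without the run, with run as random, with good arrays alone and with the replicate block (adjusted p between 0.036 and 0.044 in these 4). For cox4i1l and cox4i2 the difference was -1.473 (exact adjusted p = 0.00306), which rested on batch 2 (-2.194, exact unadjusted p = 0.00216, the smallest 462 permutations can give) and was -0.326 in batch 1 (exact unadjusted p = 0.543). For cox6b1 and cox6b2 it was 0.45 (exact adjusted p = 0.0249), and for uqcrc2a and uqcrc2b in complex III 0.43 (exact adjusted p = 0.0104).

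No difference passed for atp5mea and atp5meb (0.05, exact adjusted p = 0.908) or for atp5if1a and atp5if1b (0.32, exact adjusted p = 0.0844). In batch 1 alone, where 35 permutations allow no p below 0.0286, no pair passed after adjustment. In batch 2 alone the pairs of cox6b1 and of uqcrc2a did not pass either (exact adjusted p = 0.0877 and 0.0891). All 6 pairs that passed kept their direction in both batches.

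**Figure D4:**
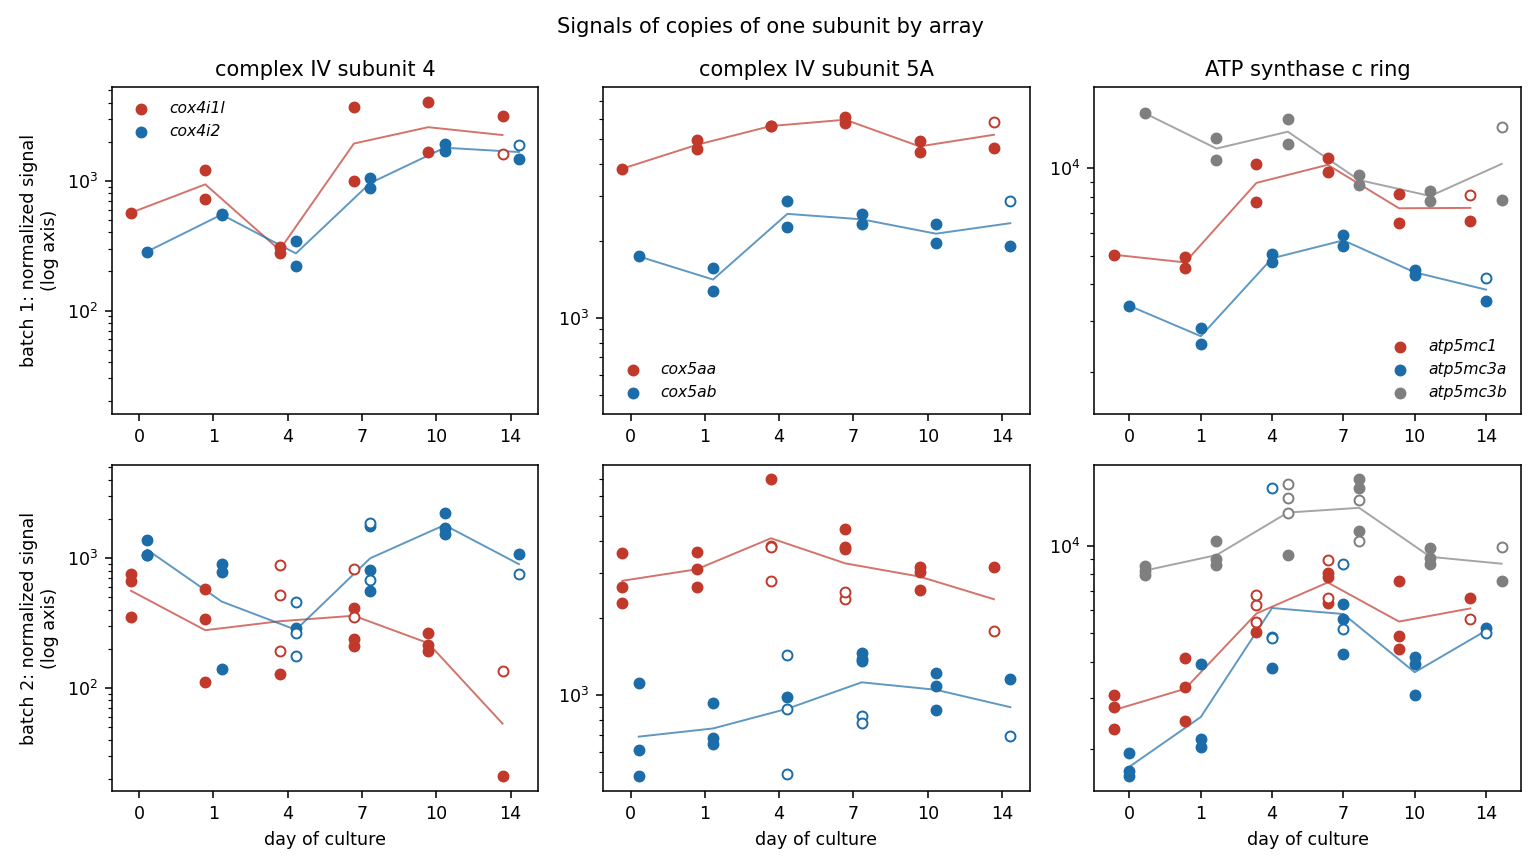
Quantile normalized signal (vertical axis, log scale) by day of culture (horizontal axis) for the copies of complex IV subunit 4, complex IV subunit 5A and the ATP synthase c ring, in batch 1 (upper row) and batch 2 (lower row). Each point is 1 array, open points are arrays labelled poor, and lines join day means of the log2 signals; signals of different genes are not comparable in level. Both subunit 4 genes lie at 345.5 or below at day 4 of batch 1, and cox4i1l ends at 20.8 on 14B of batch 2.

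The other genes of the respiratory chain were counted in the same fits of days 10–14, where 16%, 12.9% and 22.2% of all probe sets were higher and 11.7%, 12.1% and 17% lower in batch 1, batch 2 and both. Complex I, the NADH dehydrogenase, was taken as the 37 probe sets with symbols that start with nduf, leaving out ndufaf. Thus ndufa4a and ndufa4b were counted here by symbol alone. Of the 37, 16 were higher in batch 1, 16 in batch 2 and 31 over both batches. The median change over both was 0.65, and 1 was lower, the dim second probe set of ndufb6 (-1.023). Of 3 probe sets of complex II, sdhb and sdhc were higher over both batches, by 0.55 and 0.76, and sdha was not (0.18). Cytochrome c itself, the carrier between complexes III and IV, was lower over both batches by its 1 probe set, cycsb (-0.475, adjusted p = 0.038). Of 19 probe sets for assembly factors of the 3 enzymes 6 were higher over both batches, among them bcs1l, which installs the Rieske protein, by 1.30, and surf1, an assembly factor of complex IV, by 0.59. Of 14 probe sets for transcription factors of mitochondrial biogenesis 1 was higher and 4 lower over both batches. Among those lower were both probe sets of ppargc1b, a coactivator of such genes, with -0.921 and -0.730, and gabpa with -0.664.

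Other cell types and array quality moved with the days too. Leukocyte markers were lower on days 10–14 for 12 of 15 probe sets over both batches, and their summed signal was 57120 to 109900 on days 0–1, 19210 to 52650 at day 4 and 3118 to 24510 on days 10–14 in batch 1, and 48570 to 86630, 15600 to 47290 and 2726 to 11820 in batch 2. All 3 glial markers were lower, from sums of 4641 to 19040 on days 0–1 to 195 to 999.6 on days 10–14 in the 2 batches. Of 10 fibroblast probe sets 4 were higher and 0 lower. In batch 1 the summed fibroblast signal was 36180 to 92370 on days 0–1 and 22730 to 44680 at day 4. On days 10–14 it was 75040 to 105200. In batch 2 these sums were 23260 to 108400, 12360 to 50140 and 118800 to 172600, the last above all early arrays. Of 6 erythrocyte probe sets 3 were lower, of 3 endothelial ones 2 and of 6 epidermal ones 4. In batch 1 alone the epidermal markers krt4 (1.62) and cldni (2.26) were higher, and the summed epidermal signal ran from 5747 to 10130 early and from 10360 to 30830 at days 10–14, with no overlap. Of 19 skeletal muscle probe sets 6 were higher and 4 lower, where 22.2% and 17% of all probe sets were. Among them acta1a (3.44) and desma (2.87) were higher and myoglobin, mb (-5.178), lower. Relative to days 0–1, the day means of the median over the muscle list were -0.476 and -0.625 at day 4 in batches 1 and 2. At day 7 they were 0.192 and -0.088. On days 10–14 of batch 1 this median was 2.426 on 14B, labelled poor, and -0.394 to -0.167 on the other arrays. In batch 2 it ran from -0.475 to 0.67. Of 9 myoblast probe sets 4 were higher and 1 lower. Mean signals were only 34.9 to 80.7 for pax3a and the 4 probe sets of pax7a and 83.0 for myod1, which was among those higher. The brightest pax7a probe set had 111.7 to 339.9 on days 0–1 of batch 1. In batch 1 the scale factors, by which the authors brought each array to its target, were 10.1 to 23.4 on days 0–1 and 3.17 to 4.11 on days 10–14, and the ratio of 3′ to 5′ GAPDH probes, a sign of RNA quality, was 1.74 to 2.43 and 1.26 to 1.39. In batch 2 both ranges overlapped between these days. Early GAPDH ratios there spanned 3.34 to 9.72 and late ones 2.52 to 12, each range lying above its batch 1 counterpart. Among the late arrays, 10B (8.73) and 10C (12) are nevertheless labelled good. The labelled target differs between the batches, while the trimmed mean of the values was 500 on every array. Scale factors are therefore not compared between the batches. The part of these differences in the changes of the subunit genes was not tested.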

How the data were processed

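The table held 15617 probe sets for 32 arrays. Per the labels, the authors made linear intensity values with MAS5 (its version was not stated in the sources), scaled to a trimmed mean, which was 500 on every array after 2% of each tail was left out. The RMA values of the study were not used. Day 0B of batch 1 (labelled scale factor 915.22) and 115 control probe sets were left out. Quantile normalization took 10 good arrays of batch 1 as reference, 32 was added and log2 taken. The labels grade 24 arrays good and 8 poor.

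Tests used limma 3.58.1 in R 4.3.3 (lmFit, eBayes, two-sided) with 4 stages (days 0–1, 4, 7, 10–14) or 6 days, hybridization run as covariate except in batch 1, and Benjamini-Hochberg adjustment. The fits were tested on simulated data. The paper calls replicates biological, but no source used states whether each had its own preparation, so p-values may measure technical spread. The number of arrays limits the precision. Symbols came from the array annotation, updated through Entrez IDs for 10711 probe sets, and 4572 probe sets had none and 135 had several.

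Named are, in each complex, the 4 largest called changes over both batches and the 2 smallest, genes called lower or differing between batches, and copies of one subunit, each by its brightest probe set. Other called genes, and day 4 and day 7 against days 0–1, were chosen after their values were seen. The members and lists were chosen with earlier results of these data known. Alternatives were the scaling, reference quantiles, offset, a filter at a mean signal of 100, run handling, array grade, replicate block and each array left out. RefSeq sequences were not used here.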

Additional observations from a re-analysis of the deposited data

Results flagged for a closer look

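Of 140 groups of 4 to 10 arrays tested for a single distant array, among the named genes and the medians of the complexes, 10 had one, and chance gives about 1 in 20. On 1B of batch 2, compared with the other 5 arrays of days 0–1, atp5mc3a had 3920 (others 1620 to 2170), atp5mf 10500 (3990 to 5400) and cox6b2 12900 (7690 to 8870), while cox4i2 had 140 (786 to 1380). On 14B of batch 1, among 4 arrays of days 10–14, atp5mc3b had 13800 (7740 to 8340) and cox6b2 14700 (12900 to 13200), while cox6b1 had 4050 (6140 to 6540). On 4B of batch 2, among 4 arrays of day 4, atp5mc3a had 15700 (3810 to 4850), and the median of complex III was 0.31 (0.68 to 0.73). On 0B of batch 2, atp5l had 2800 (2590 to 2660), a small difference among close values. The change of cox4i1l at days 10–14 differed between the batches by 3.00 on the log2 scale, which passed the test of that difference.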

How the results depend on the processing

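Over both batches, the count of 22 higher probe sets stayed between 18 and 23 in every alternative run. It was 19 with the authors' scaling alone and 23 with good arrays alone, where 18.4% and 25% of all probe sets were higher. With the authors' scaling alone the counts were 7 in batch 2 on days 10–14, 8 and 4 in batch 2 at days 4 and 7 and 16 over both batches at day 4 (each against days 0–1, where 18.2%, 22.3% and 14.9% of all probe sets were higher), 8 from day 1 to day 4 and 0 from day 4 to day 7. There the median of complex IV in batch 2 was 0.236, and atp5mc3b in batch 2 (-0.266), atp5if1b over both (0.024) and atp5mc1 minus atp5mc3a (-0.128) changed sign, while atp5mc3b was called lower over both (-0.483). With good arrays alone the counts were 0 and 1 in batch 2 at days 4 and 7, 18 over both at day 4, 8 from day 1 to day 4 and 2 from day 4 to day 7, the median of complex III in batch 2 was 0.666, and cox5aa (0.071) and uqcrh (0.097) changed sign there. In batch 1 at day 4 the count was 1 with an offset of 16, 12 with 100 and 7 with the filter. There 428 and 716 of all probe sets and 760 of those the filter kept were higher. With an offset of 16 no subunit gene was called from day 4 to day 7 (0), where 219 of all probe sets were. With good arrays alone 4.92% of all probe sets were called from day 4 to day 7.

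In batch 1 the replicate letters showed no common difference over days: of 10 comparisons of A and B differences between days, 0 correlated above 0.1 (-0.329 to 0.066). Such differences of single arrays cannot settle whether a letter marks the same preparation. In batch 2, where several letters follow the hybridization run, the pairing was not examined. With the replicate block the count of batch 1 at day 4 was 0, where 298 of all probe sets were higher. The count of differences between batches was then 0, where 553 of all probe sets differed. On days 10–14 the counts with this block were 12, 13 and 21 in batch 1, batch 2 and both, where 2189, 2064 and 3163 of all probe sets were higher. Changes of sign, all of values that did not pass, were uqcrh in batch 2 (0.035 with the replicate block, 0.030 without the run, 0.018 with run as random), cox4i1l over both (-0.173, -0.165 and -0.133) and cox5aa over both (-0.035, -0.020 and -0.001). The difference of atp5mea and atp5meb was -0.367 in batch 1 alone and that of atp5mc1 and atp5mc3a -0.032 in batch 2 alone.

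Leaving out each array in turn, the counts on days 10–14 ran from 5 to 15 in batch 1 and from 4 to 13 in batch 2. At the lowest, 12% and 7.61% of all probe sets were called. At day 4 the counts ran from 0 to 7 and from 5 to 27, with 8.48% and 13.1% of all at the highest. At day 7 they ran from 12 to 20 in batch 1 with 7A and 7B kept, and from 11 to 21 in batch 2. There 15.4% and 16.6% of all were called at the highest. From day 1 to day 4 the counts ran from 14 to 28 (10.3% and 20.4% of all) and from day 4 to day 7 from 0 to 1. The median of complex III in batch 1 ran from 0.366 to 0.754, the latter without 1B. Values that changed sign ran from -0.066 to 0.336 (atp5if1b), -0.436 to 0.162 (atp5mea) and -0.019 to 0.379 (atp5meb) in batch 1, from -0.029 to 0.124 (atp5mc3b), -0.201 to 0.009 (uqcrb) and -0.138 to 0.026 (uqcrh) in batch 2, and from -0.187 to 0.266 (cox4i1l) and -0.037 to 0.068 (cox5aa) over both. The cause was not tested. The second probe sets of atp5l and uqcrc2a, the only dim ones, have signals where the offset and background limit the change that can be seen.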
